A study of Mus musculus with 186 samples.

Results

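The genes that define midbrain dopamine neurons were followed through a mouse brain study of Akap11, the gene for an anchoring protein of the cyclic AMP dependent protein kinase. The members were a named list of 9 genes, Th, Slc6a3, Slc18a2, Ddc, Pitx3, Aldh1a1, En1, Foxa2 and Lmx1b, and all 9 were found by symbol among the 28338 symbols of the count matrix. The study held 186 bulk RNA-seq libraries of mouse brain tissue from 3 genotypes, which are called WT (wild type), HET (Akap11 +/-) and KO (Akap11 -/-). Each genotype was sampled in 6 regions (substantia nigra, striatum, thalamus, hippocampus, and prefrontal and somatosensory cortex) at 4 and 12 weeks of age, with 96 libraries at 4 weeks and 90 at 12 weeks. The sources used here do not give the strain or sex of the mice or how the Akap11 allele was made. Regions were dissected from frozen brain in a cryostat and the libraries were made from polyadenylated RNA. The substantia nigra gave 32 libraries, 6 WT, 6 HET and 5 KO at 4 weeks and 5 of each genotype at 12 weeks, and a library is named below by its genotype and the number in its label. The labels do not say that the libraries of a group came from separate animals, so the p-values measure the spread between these samples.

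Dopamine neurons of the substantia nigra and ventral tegmental area make dopamine from tyrosine, load it into vesicles and take it back up from the extracellular space at their terminals. They are kept in this state by a set of transcription factors that act from early development into adult life. Th encodes tyrosine hydroxylase, the rate-limiting enzyme of catecholamine synthesis, and Ddc encodes the aromatic amino acid decarboxylase that turns L-DOPA into dopamine and also serves serotonin neurons. Slc6a3 encodes the dopamine transporter of the plasma membrane, and Slc18a2 encodes VMAT2, the vesicular transporter that all monoamine neurons share. Aldh1a1 encodes a retinaldehyde dehydrogenase that marks a ventral subset of nigral dopamine neurons and also oxidises the aldehyde made from dopamine. Pitx3, En1, Foxa2 and Lmx1b encode transcription factors of midbrain dopamine neurons. Lmx1b is also required in serotonin neurons.

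In GRCm38, with GENCODE M21 gene models, the minus strand of chromosome 7 carries Th from 142892752 to 142931128 and that of chromosome 11 carries Ddc from 11814101 to 11898144. Slc6a3 lies on chromosome 13 from 73536747 to 73578672 and Slc18a2 on chromosome 19 from 59260896 to 59296012, both on the plus strand. Chromosome 19 also carries Aldh1a1, from 20492715 to 20643465 on the plus strand, and Pitx3, from 46135685 to 46148326 on the minus strand. En1 lies on chromosome 1 from 120602418 to 120607992, plus strand. Chromosome 2 carries Foxa2 from 148042877 to 148046969 and Lmx1b from 33560965 to 33640511, both on the minus strand. All 9 are protein-coding. Slc18a2, Ddc, Pitx3, Aldh1a1 and Lmx1b overlap a gene on the opposite strand (Elovl3 for Pitx3, Gm29261, 1700042O10Rik and Gm38011 for Slc18a2, Ddc and Lmx1b, and C730002L08Rik and Gm6684 for Aldh1a1). The sources used here do not say whether the counting used strand, so reads of these 5 genes and of their partners cannot be told apart and their levels are uncertain to that extent.

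The promoters of the 4 genes that make and carry dopamine are shown because these genes moved together in the nigral libraries described below. They are RefSeq promoters on GRCm38.p6, read 5′ to 3′ on the strand of the gene, and each starts 250 bases before the annotated start site. The Th stretch is chr7:142899996-142900245 (minus), the Slc18a2 stretch chr19:59260628-59260881 (plus), the upstream Ddc stretch chr11:11898145-11898394 (minus) and the Slc6a3 stretch chr13:73536497-73536746 (plus). The GENCODE span of Th given above runs further upstream than its RefSeq start site, so the Th stretch lies within that span. Capitals mark a cyclic AMP response element (TGACGTCA) in Th and Slc18a2 and an NR4A motif (AAAGGTCA, here on the other strand) in Ddc. Slc6a3 held none of the motifs searched.
Th: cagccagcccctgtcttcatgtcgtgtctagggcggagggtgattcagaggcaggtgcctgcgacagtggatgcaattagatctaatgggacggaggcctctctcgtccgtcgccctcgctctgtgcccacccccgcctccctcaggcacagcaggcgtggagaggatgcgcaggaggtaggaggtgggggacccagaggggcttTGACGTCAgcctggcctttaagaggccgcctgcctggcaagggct
Slc18a2: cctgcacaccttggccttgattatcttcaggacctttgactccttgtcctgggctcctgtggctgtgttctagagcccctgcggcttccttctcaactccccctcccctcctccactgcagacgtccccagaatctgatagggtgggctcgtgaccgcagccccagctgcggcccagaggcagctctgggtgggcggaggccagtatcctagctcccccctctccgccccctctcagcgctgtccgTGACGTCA
Ddc: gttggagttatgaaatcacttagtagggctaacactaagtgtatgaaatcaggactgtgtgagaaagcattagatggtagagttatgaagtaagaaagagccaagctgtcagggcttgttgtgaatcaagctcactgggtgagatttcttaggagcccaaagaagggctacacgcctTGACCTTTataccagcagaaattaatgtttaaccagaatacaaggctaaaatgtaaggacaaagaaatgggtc
Slc6a3: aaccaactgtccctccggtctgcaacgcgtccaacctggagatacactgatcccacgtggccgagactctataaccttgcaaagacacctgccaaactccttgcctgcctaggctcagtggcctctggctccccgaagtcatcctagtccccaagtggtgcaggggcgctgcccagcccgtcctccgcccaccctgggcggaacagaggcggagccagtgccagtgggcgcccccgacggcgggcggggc

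The search covered 300 bases, 250 before and 50 after the start site, on both strands of the 13 RefSeq promoters of the 9 genes. TGACGTCA was found from base -45 to -38 of Th and from base -4 to 4 of Slc18a2, counted from the start site, and in 1.79% of the 32851 mouse promoters of that length. AAAGGTCA was found from base -73 to -66 of the upstream promoter of Ddc and in 1.51% of all promoters. The homeodomain letters TAATCC (7.06% of all promoters) and TAATTA (5.29%) and the forkhead letters TGTTTAC (3.65%) and TGTTTGC (5.07%) were in none of the 13. No match overlapped another. A match is a description of the letters, and the windows without a match say nothing about the factors.

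The libraries held 20.8 to 73.3 M (mega) expected counts each, and the 32 nigral libraries 27.5 to 69.2 M. Levels below are in CPM, the expected count per M of the library's scaled total. Akap11 was lower in each KO library than in any WT or HET library of its region and age in 12 of 12 sets, with group means at 5.1% to 8.01% of WT. The exception to the labels was the 4-week nigral library labelled WT 92, with Akap11 at 43.6 CPM. Its group held 195 to 241 CPM otherwise, HET 96.5 to 138 and KO 13.4 to 15.7. In 3 further 4-week nigral libraries, WT 42, KO 91 and KO 44, markers of other regions or cell types stood apart, as described with the 4-week values. The 4-week nigral genotype fits and the age fit in WT nigra are given with and without these 4 libraries. Other 4-week nigral results include them unless stated.

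The 9 genes separated the substantia nigra from the rest of the brain. In 12-week WT nigra Th stood at 810.2 ± 116 CPM (SD, n = 5), Slc6a3 at 1614 ± 122, Slc18a2 at 499 ± 91.5, Ddc at 571 ± 67.9 and Aldh1a1 at 794 ± 113 CPM. The transcription factors were lower, En1 at 53.8 ± 9.58, Lmx1b at 29.2 ± 2.77, Foxa2 at 10.4 ± 1.73 and Pitx3 at 8.93 ± 1.04 CPM. All 9 were called higher in WT nigra than in the mean of the other 5 regions at 12 weeks (adjusted p under 0.05, edgeR), where 35.7% of the 17180 genes tested were called higher. All 9 were also called at 4 weeks, where 31.4% of 16946 genes were called higher, and 7 of 7 tested were called without the library labelled WT 92. At 12 weeks each of the 15 nigral libraries of any genotype lay above each of the 75 other libraries for 9 of 9 members, which held for 3.15% of 18128 genes. At 4 weeks this held for 3 of 9 members, Ddc, En1 and Lmx1b, against 0.342% of genes. The direction of these differences is what the list was named for, and they serve as a check of the region label. Pitx3, En1 and Foxa2 were near 0 elsewhere and passed the low-count filter through the nigral libraries. Slc6a3 was also near 0 elsewhere, with a mean of at most 0.22 CPM in any other 12-week WT region. The calls of these genes add little to that check. In bulk tissue, fewer dopamine neurons and less RNA per neuron cannot be told apart, here and in what follows.

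**Figure D1:**
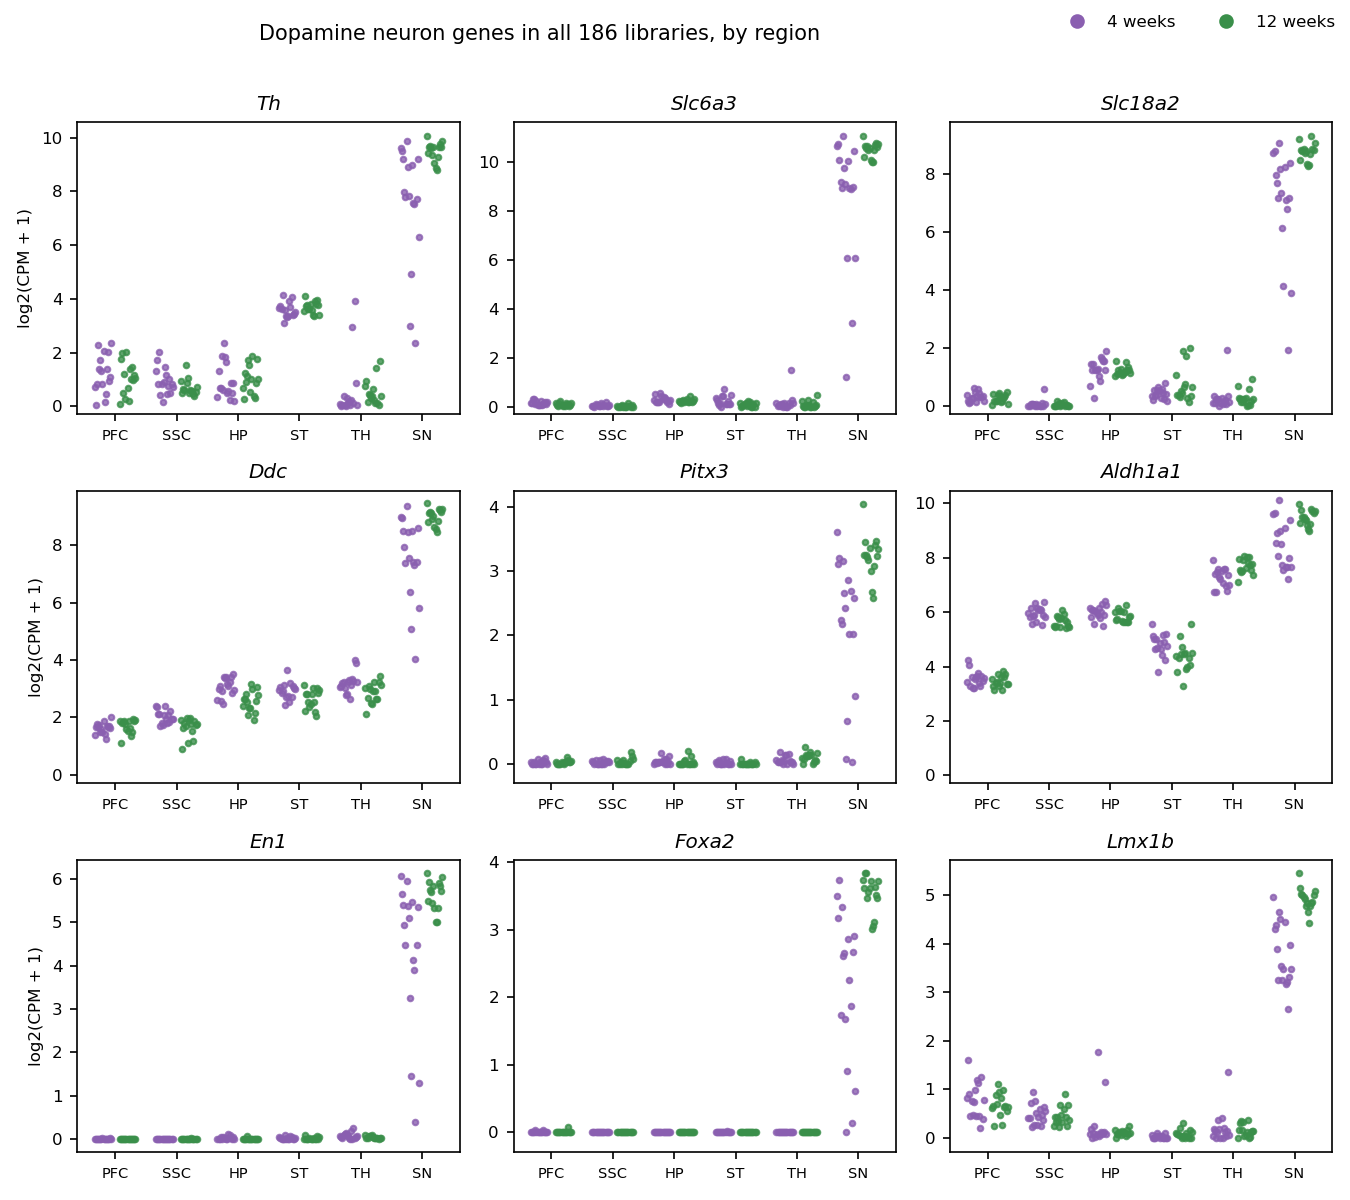
Level of each of the 9 genes in all libraries as log2(CPM + 1), by region (PFC, prefrontal cortex; SSC, somatosensory cortex; HP, hippocampus; ST, striatum; TH, thalamus; SN, substantia nigra), with a point for each library, purple at 4 weeks and green at 12 weeks. All 9 genes are highest in the nigra at 12 weeks, Th is next highest in striatum and Aldh1a1 in thalamus, and the 4-week nigral points run down to the level of other regions for 6 of the genes.

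Outside the nigra the enzymes were the members with the broadest signal. Th was next highest in striatum, at 12.8 ± 2.02 CPM (SD, n = 5) in 12-week WT, with the 5 libraries between 9.5 and 14.6. It stood at 1.22 ± 0.324 in prefrontal cortex, 0.955 ± 0.856 in hippocampus, 0.873 ± 1.02 in thalamus and 0.446 ± 0.123 CPM in somatosensory cortex. The striatal WT libraries lay above all of these, and those of prefrontal cortex, hippocampus and thalamus overlapped. Over all genotypes striatal Th ran from 7.53 to 16.7 CPM at 4 weeks and from 9.35 to 16.1 at 12 weeks. Ddc stood at 7.32 ± 2.07 CPM in thalamus, 5.36 ± 1.87 in striatum, 4.87 ± 1.88 in hippocampus, 2.32 ± 0.587 in prefrontal and 2.12 ± 0.557 in somatosensory cortex. Each of these regions overlapped the next in the order.

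Aldh1a1 had the highest levels outside the nigra. In 12-week WT it stood at 209 ± 34.8 CPM in thalamus, 57.1 ± 10.8 in hippocampus, 45.8 ± 4.06 in somatosensory cortex, 23.5 ± 13.2 in striatum and 11.1 ± 1.74 in prefrontal cortex. Thalamic libraries lay above those of all other regions except the nigra, hippocampus, somatosensory cortex and striatum each overlapped the next in that order, and prefrontal cortex lay below striatum. The fitted log2 difference of nigra from the other regions at 12 weeks was 4.24 for Aldh1a1, 7.21 for Ddc, 9.18 for Th, 10.96 for Slc18a2 and 14.33 for Slc6a3. The fit averages the other regions on the log scale, so these values are larger than the log2 ratio to their mean CPM.

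The transporters were close to absent from the other regions. Slc6a3 averaged at most 0.22 CPM in any other 12-week WT region, and its highest value in the 154 libraries outside the nigra was 1.87 CPM, in the 4-week thalamic library WT 913. Slc18a2 stood at 1.44 ± 0.237 CPM in hippocampus, where every 12-week WT library held at least 1.2 CPM. It was at 0.825 ± 1.24 in striatum, 0.342 ± 0.36 in thalamus, 0.233 ± 0.126 in prefrontal cortex and 0.00842 ± 0.0116 CPM in somatosensory cortex. The striatal mean rested on a library at 3.02 CPM, and the median there was 0.247 CPM.

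Among the transcription factors, Foxa2 was listed at 0 in 150 of the 154 libraries outside the nigra, with 7 expected counts over all of them. En1 was at 0 in 102 of 154 with 107 counts in all, and Pitx3 at 0 in 66 with 200.3 counts. Pitx3 averaged at most 0.0664 CPM in any other 12-week WT region. Lmx1b was the factor with signal elsewhere, at 0.63 ± 0.206 CPM in prefrontal and 0.456 ± 0.275 in somatosensory cortex of 12-week WT, against 0.0912 ± 0.0581 in hippocampus, 0.0622 ± 0.0493 in thalamus and 0.047 ± 0.0551 in striatum. The 2 cortical regions overlapped, and each lay above hippocampus, thalamus and striatum. At 4 weeks Lmx1b reached 2.38 CPM in the hippocampal library KO 163 and 1.56 in the thalamic library WT 914.

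Per kilobase of the longest annotated transcript, the order of levels in 12-week WT nigra was Slc6a3 (466.9 ± 35.3 CPM per kb, SD, n = 5), Th (415.5 ± 59.3), Aldh1a1 (336.9 ± 47.8), Ddc (282.7 ± 33.6), Slc18a2 (113.6 ± 20.8), En1 (20.5 ± 3.65), Pitx3 (6.47 ± 0.752), Lmx1b (6.11 ± 0.577) and Foxa2 (4.87 ± 0.811). The plasma membrane transporter and the rate-limiting enzyme thus headed the list on this scale, and the vesicular transporter lay well below both. Slc6a3 and Th differed by less than the SD of Th, and Pitx3 and Lmx1b by less than the SD of either.

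At 4 weeks the nigral libraries of the same genotype differed by far more than at 12 weeks. Th ran from 4.11 to 592 CPM in WT (median 187, n = 6) and from 219.8 to 949 in HET (median 666, n = 6), and was 6.91, 29.2, 475, 225 and 504 CPM in the KO libraries 44, 91, 161, 163 and 932. Slc6a3 ran from 9.68 to 1388 CPM in WT (median 485) and from 485 to 2157 in HET (median 1348), and was 1.36, 67.6, 869, 544 and 1039.8 CPM in the same KO libraries. The low libraries were WT 42, the library labelled WT 92, KO 44 and KO 91 for both genes, and all 6 HET libraries lay above those 4. At 12 weeks the 15 libraries stayed within 443 to 1084 CPM for Th and within 1011 to 2109 for Slc6a3.

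**Figure D2:**
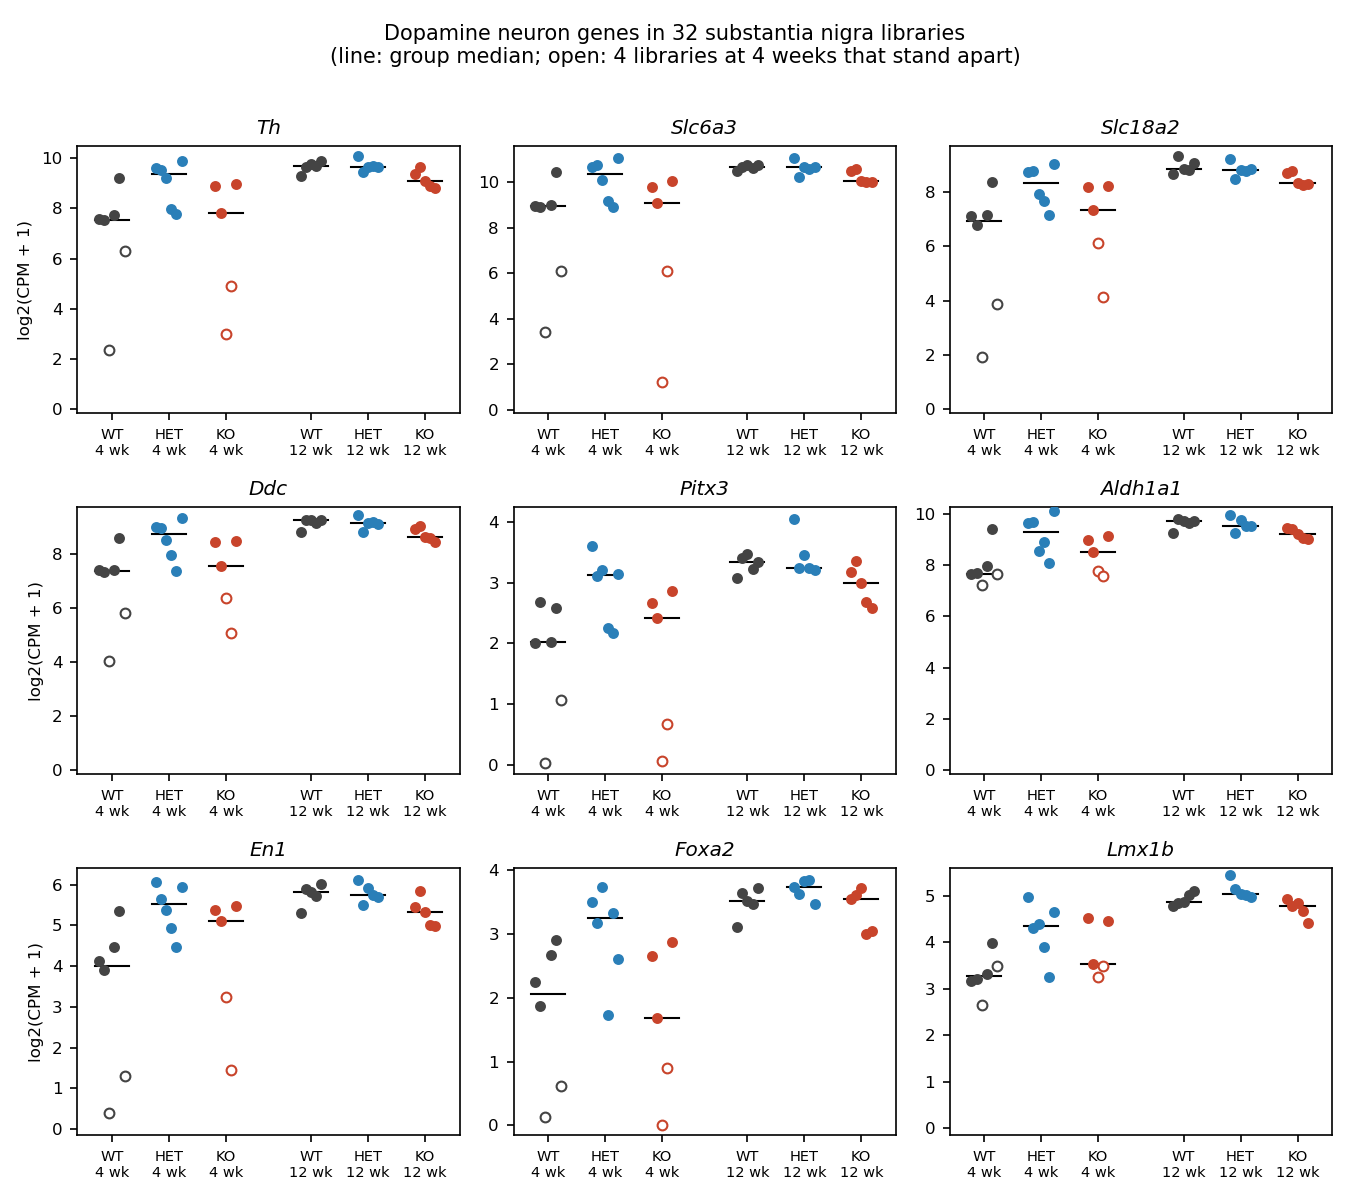
Level of each of the 9 genes in the 32 nigral libraries, in CPM on a log axis, by age and genotype, with a point for each library. The 4-week libraries spread from 4.11 to 949 CPM for Th and from 1.36 to 2157 for Slc6a3, while the 12-week libraries of each genotype lie close together, and KO 44 is lowest for Slc6a3 but not for Slc18a2 or Ddc.

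The other members followed. Slc18a2 ran from 2.75 to 328 CPM in 4-week WT (median 124) and from 141 to 532 in HET (median 335), and was 68.7, 16.7, 289.9, 162 and 301 CPM in KO 44, 91, 161, 163 and 932. Ddc ran from 15.3 to 387 in WT (median 164), from 166 to 653 in HET (median 428) and from 32.5 to 357 CPM in KO. Aldh1a1 ran from 149.6 to 669 CPM in WT (median 202), 269 to 1101 in HET (median 635) and 187 to 553 in KO. For all 3 genes WT 42 was the lowest WT library and KO 91, not KO 44, the lowest KO library.

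En1, Pitx3 and Foxa2 also spread widely at 4 weeks, and Lmx1b had the narrowest relative range of the 9 members in WT. En1 ran from 0.322 to 39.9 CPM in 4-week WT (median 15.2), 21.4 to 66.3 in HET (median 45.2) and 1.73 to 43.3 in KO. Pitx3 ran from 0.0248 to 5.43 in WT (median 3.05), 3.51 to 11.2 in HET (median 7.74) and 0.0524 to 6.27 CPM in KO. Foxa2 ran from 0.099 to 6.5 in WT (median 3.2), 2.33 to 12.3 in HET (median 8.54) and 0 to 6.29 CPM in KO, with KO 44 at 0. Lmx1b ran from 5.3 to 14.8 in WT (median 8.62), 8.52 to 30.1 in HET (median 19.4) and 8.46 to 21.8 CPM in KO. Pitx3 and Foxa2 were at most 0.099 CPM in WT 42 and KO 44, whereas Lmx1b was at least 5.3 CPM in every nigral library.

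The ratios between members set KO 44 apart from the other low libraries. Slc18a2 stood at 0.268 to 0.391 of Slc6a3 in the 15 libraries at 12 weeks, and at 0.206 to 0.359 in 16 of the 17 libraries at 4 weeks. KO 44 was the remaining library, where Slc18a2 was 50.4 times Slc6a3, Ddc 59.5 times and En1 6.23 times. At 12 weeks Ddc was 0.317 to 0.380 of Slc6a3 and En1 0.0271 to 0.0376. In KO 44 Slc18a2, Ddc and Lmx1b, which other monoamine neurons also use, stood at 68.7, 81.1 and 8.46 CPM. That Lmx1b value was the lowest of the 4-week KO libraries. Th, an enzyme of catecholamine synthesis in general, was at 6.91 CPM, 5.08 times Slc6a3, and Pitx3 was at 0.0524 CPM. In WT 42 and KO 91 both transporters were low and kept the proportion seen elsewhere, with ratios of 0.284 and 0.247. Ddc stood at 1.58 of Slc6a3 in WT 42, and Th at 1.15 of Slc6a3 in the library labelled WT 92.

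Markers of neighbouring cells moved with these libraries. Tph2, the enzyme of serotonin synthesis, was at 160 CPM in KO 44, 148 in HET 93, 138 in KO 161, 92.8 in KO 932, 42.8 in KO 163 and 26.5 in HET 941, and at most 5.34 CPM in the other 26 nigral libraries. Dbh, which makes noradrenaline, was at 12.1 CPM in KO 44 and at most 0.161 in the other 4-week nigral libraries, and Slc6a2, the noradrenaline transporter, at 13.5 CPM in KO 44. The summed level of the 7 serotonin, noradrenaline and histamine genes was 0.817 to 9.13 CPM in 4-week WT, 1.41 to 235 in HET and 1.59 to 289 in KO. Serotonin neuron markers were thus unevenly present between genotypes at 4 weeks, high in 4 of 5 KO and 2 of 6 HET libraries and in no WT library. At 12 weeks the same sum was at most 9.73 CPM in any library.

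**Figure D3:**
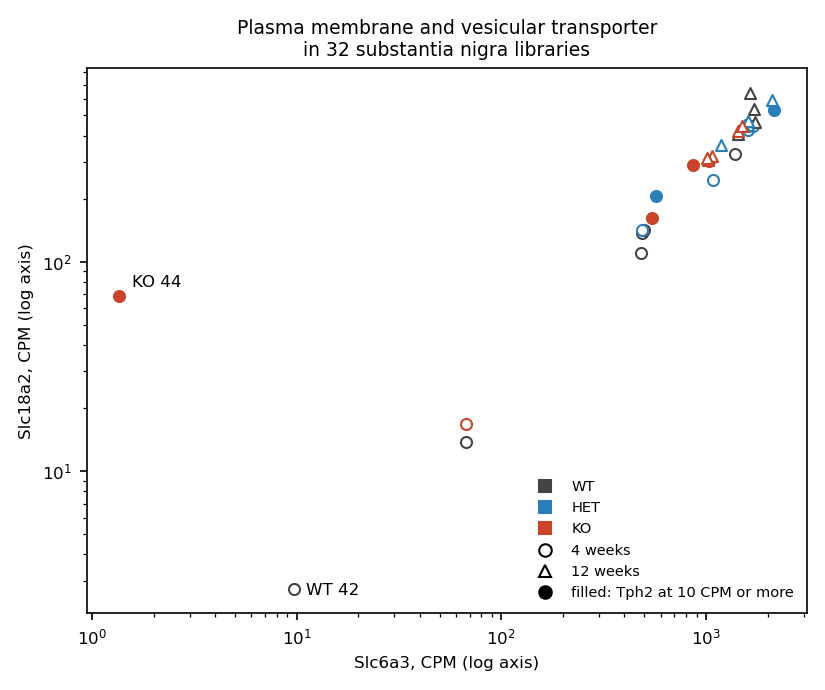
Slc18a2 against Slc6a3 in the 32 nigral libraries, both in CPM on log axes, with the 6 libraries that held more than 10 CPM of Tph2 marked. All libraries but KO 44 follow a common proportion, and KO 44 has 68.7 CPM of Slc18a2 at 1.36 CPM of Slc6a3.

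Thalamic markers also differed between the 4-week libraries. The summed level of the 10 thalamic neuron genes, all 10 of them detected, was 204 to 3443 CPM in 4-week WT nigra, 198 to 291 in HET and 170.2 to 2177 in KO. Tcf7l2, a transcription factor of thalamic neurons, was at 191 CPM in WT 42 and 163 in KO 91. As the mean of log2(CPM + 1), the members were at 2.46 in WT 42, 3.45 in KO 44, 3.81 in KO 91 and 4.02 in the library labelled WT 92, and at 5.54 or more in the other 4-week libraries. On the same scale the thalamic list was at 7.54 in WT 42, 7.03 in KO 91, 6.02 in WT 23, 5.42 in WT 142 and 5.39 in the library labelled WT 92, and between 3.44 and 4.26 in the other 12. In WT, 5 of 6 libraries were thus above all HET libraries for the thalamic list. At 12 weeks the thalamic list stayed between 3.36 and 4.17 in all 15 libraries.

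Further lists moved at 4 weeks, all of their genes detected. The 7 genes of meningeal and vascular fibroblasts were at 7.27 in HET 941, 6.35 in HET 93 and 5.86 in KO 163 on that scale, against at most 4.03 in WT, and their summed level was 59.0 to 229.9 CPM in WT, 41.8 to 2876 in HET and 49.5 to 797 in KO. The 5 genes of red nucleus and interpeduncular neurons, which lie beside the nigra, summed to 2.77 to 88.3 CPM in WT, 45.2 to 119 in HET and 3.88 to 107 in KO. Their score was at most 1.16 in WT 42, KO 44, KO 91 and the library labelled WT 92, the 4 libraries with the lowest members, and at least 1.65 in the other 4-week libraries. The 7 genes of cortical and hippocampal excitatory neurons summed to 60.1 to 479 CPM in WT, 28.2 to 151 in HET and 19.8 to 264 in KO. The 8 genes of nigral and midbrain GABA neurons scored 4.49 to 4.99 in WT 42, KO 44, KO 91 and the library labelled WT 92. They scored at least 5.575 in the other 4-week libraries. The 6 genes of subthalamic and mammillary neurons scored 2.55 in KO 91 and 2.52 in the library labelled WT 92, and at most 1.825 in the others. The part of these lists in the members' values was not tested.

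**Figure D4:**
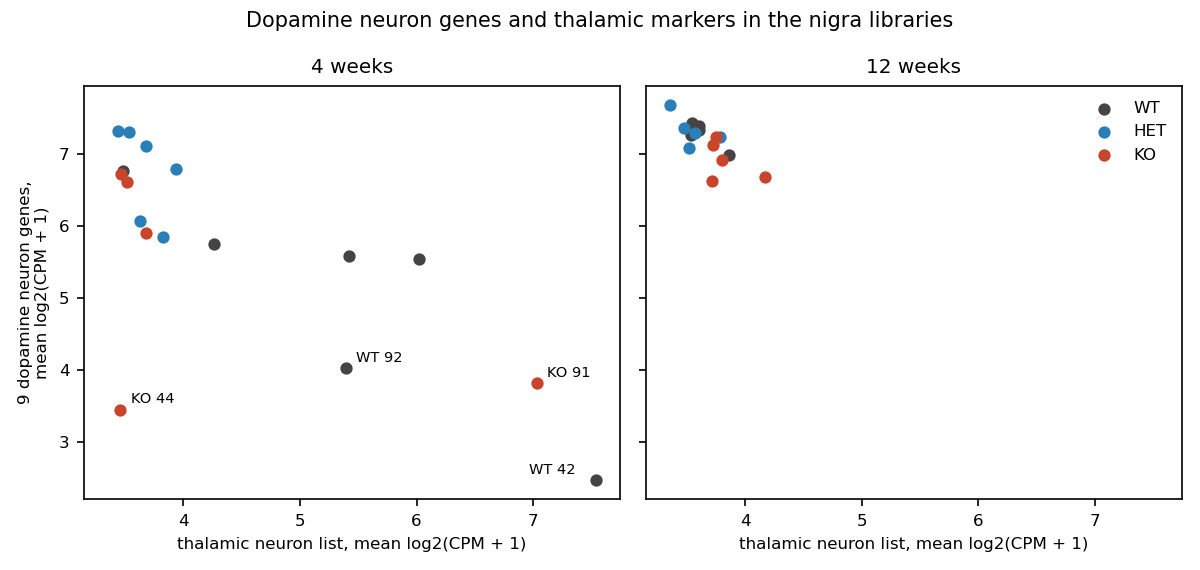
Mean log2(CPM + 1) of the 9 genes against that of the 10 thalamic neuron genes in the nigral libraries, by age and genotype. The 4-week libraries with high thalamic values are the ones with low values of the 9 genes, apart from KO 44, and the 12-week libraries form a compact group.

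At 12 weeks the levels of the enzymes, transporters, Aldh1a1 and En1 in KO nigra centred below those of WT, and no difference passed the adjusted threshold. None of the 9 members was called at an adjusted p under 0.05 (edgeR, 16490 genes tested), where 0.0364% of genes were called lower. All 9 fitted log2 fold changes were below 0, with a median of -0.42 against -0.0051 over all genes tested. At an unadjusted p under 0.05, 6 of 9 were lower in KO (Th, Slc6a3, Slc18a2, Ddc, Aldh1a1 and En1), where 3.7% of all genes were lower and 2.47% higher. The adjusted p of those 6 was 0.649. Those 6 varied together over the 15 libraries, with pairwise Pearson correlations of log2(CPM + 1) from 0.875 to 0.973. Counts of members, here and below, are thus not counts of independent results. DESeq2 called 0 members, where it called 0.0728% of genes lower, and had 7 at an unadjusted p under 0.05, where 3.75% of genes were lower.

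Among the enzymes, Th was 628, 796, 875, 817 and 936 CPM in WT 1 to 5 and 663, 809.7, 537, 471 and 443 CPM in KO 1 to 5. KO 3, 4 and 5 lay below all WT libraries, while KO 1 and 2 lay within their range. The log2 fold change was -0.48 ± 0.15 (SE; adjusted p = 0.649, edgeR). Ddc was 454, 615, 606, 565 and 611 CPM in WT and 482, 523, 399.6, 383 and 348 in KO. The same 3 KO libraries lay below all WT libraries, and the log2 fold change was -0.43 ± 0.12 (SE).

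Among the transporters, Slc6a3 was 1435, 1635, 1731, 1553 and 1713 CPM in WT and 1441, 1504, 1069.8, 1024 and 1011 CPM in KO. KO 1 and KO 2 reached the lower end of WT, and the log2 fold change was -0.42 ± 0.13 (SE). Slc18a2 was 407, 640.0, 463, 449 and 536 CPM in WT and 421, 445, 319.8, 305 and 313 CPM in KO. KO 1 and 2 again lay within the WT range, and the log2 fold change was -0.48 ± 0.14 (SE). The ratios between members overlapped between the genotypes. Slc18a2 was 0.309 ± 0.0489 of Slc6a3 in WT and 0.299 ± 0.00653 in KO (SD, n = 5), Th ranged from 0.437 to 0.546 of Slc6a3 in WT and from 0.439 to 0.538 in KO, and Ddc was 0.353 ± 0.0224 and 0.355 ± 0.0179.

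Aldh1a1 was 599.9, 886, 833, 804 and 849 CPM in WT and 691, 676, 589, 532 and 512 in KO. Here WT 1 was the low WT library, at the level of KO 3, and the other 4 lay above all KO libraries. The log2 fold change was -0.41 ± 0.13 (SE), and the ratio to Slc6a3 was 0.491 ± 0.0468 in WT and 0.501 ± 0.0384 in KO.

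The transcription factors were less uniform. En1, which supports the survival of dopamine neurons, was 38.9, 58.5, 55.8, 51.5 and 64.4 CPM in WT and 42.6, 56.3, 39.1, 31 and 30.9 in KO, a log2 fold change of -0.43 ± 0.16 (SE). KO 4 and KO 5 lay below all WT libraries. Pitx3 was 8.93 ± 1.04 CPM in WT and 6.92 ± 1.78 in KO (SD, n = 5), a log2 fold change of -0.37 ± 0.18 (SE; adjusted p = 0.828, edgeR). Lmx1b was 29.2 ± 2.77 and 25.7 ± 3.5 CPM, a log2 fold change of -0.19 ± 0.10 (SE; adjusted p = 0.838, edgeR). Foxa2, a forkhead factor of midbrain progenitors and neurons, was 10.4 ± 1.73 and 9.69 ± 2.38 CPM, a log2 fold change of -0.10 ± 0.15 (SE; adjusted p = 0.991, edgeR). WT and KO libraries overlapped for each of the 9 members, where 0.662% of genes did not overlap and were lower in KO.

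The 12-week KO difference was also fitted with marker lists as covariates. With the mean log2(CPM + 1) of 14 other dopamine neuron identity genes as a covariate, the median over the members was -0.11 and 0 of 9 had an unadjusted p under 0.05 (edgeR). This covariate is close to the members themselves, since its genes include Chrna6, Dlk1 and Drd2, among those most like Slc6a3 or Th, and all 14 lay below 0 in KO. It is not an independent check of the difference. With the thalamic list as a covariate it was -0.24 with 2 of 9. The thalamic list stood at 3.53 to 3.87 in WT and 3.71 to 4.17 in KO, and its summed level at 202 to 254 and 235 to 305 CPM. The 6 microglial genes, all detected, summed to 265 to 306 CPM in WT and 189 to 246 in KO, without overlap, and their part in the result was not tested. Leaving out any library of the 15 kept all 9 below 0, with medians from -0.51 to -0.36, and called none.

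In the 12-week nigra of HET the members lay on both sides of WT. Th was 1084, 696, 801, 817 and 794 CPM in HET 1 to 5, a log2 difference of 0.05 from WT, and Slc6a3 was 2109, 1184, 1605, 1527 and 1603 CPM, a difference of -0.01. HET 1 was the highest and HET 2 the lowest of the group for both genes. Slc18a2 (-0.11), Aldh1a1 (-0.02), En1 (0.04) and Ddc lay close to 0, and Pitx3 (0.18), Foxa2 (0.22) and Lmx1b (0.22) above it. None of the 9 was called (smallest adjusted p 0.93, edgeR), where 0.00606% of genes were called lower and 0% higher. At an unadjusted p under 0.05 there was 1 member, Lmx1b, at 30.1 to 42.7 CPM in HET against 26.3 to 33.1 in WT, where 2.23% of genes were higher.

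At 4 weeks the fitted differences of HET from WT nigra were above 0 for all 9 members, and 0 were called. The median log2 fold change was 1.35, from 1.05 for Lmx1b to 1.53 for En1, and the smallest adjusted p was 0.548 (edgeR, 16218 genes tested, of which 0% were called in either direction). At an unadjusted p under 0.05, 3 of 9 were higher, Ddc (1.35 ± 0.63, SE), Aldh1a1 (1.19 ± 0.41) and Lmx1b (1.05 ± 0.32), where 3.67% of genes were higher and 5.22% lower. Slc6a3 was at 1.38 ± 1.01 (SE), and the HET and WT ranges overlapped for all 9 members. With the thalamic list as a covariate the median was 0.20, and with the other dopamine identity genes 0.38. The fibroblast and red nucleus lists given above, whose highest values were in HET libraries, were not used as covariates, and their part was not tested. Without WT 42, KO 91, KO 44 and the library labelled WT 92 it was 0.91, with 7 of 9 at an unadjusted p under 0.05 and 0 called.

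For KO against WT at 4 weeks the median was 0.35, from -0.09 for Foxa2 to 0.64 for Lmx1b (adjusted p = 0.643, edgeR). None of the 9 was called, where 0.00617% of genes were called lower and 0% higher. None had an unadjusted p under 0.05, where 3.66% of genes were higher and 2.38% lower. The sign of the median differed between fits. It was -0.66 with the thalamic list as a covariate, with 7 of 9 below 0, and -0.07 with the serotonin list. Without the 4 libraries named above it was 0.46. The part of other tissue in these values was not tested. Leaving out each library in turn gave medians from 0.04 (without KO 932) to 0.84 (without WT 914).

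Between 4 and 12 weeks, Slc18a2, Ddc, Aldh1a1, En1 and Lmx1b rose in WT nigra. All 9 fitted log2 differences were above 0, from 1.52 to 2.04 with a median of 1.73, and 5 of 9 were called (edgeR, 16809 genes tested), where 6.86% of genes were called higher and 11.8% lower. The called members were Lmx1b (1.67, adjusted p = 3.97e-05), Aldh1a1 (1.52, 0.00237), Ddc (1.85, 0.0112), Slc18a2 (2.04, 0.0254) and En1 (1.80, 0.0424, edgeR). Th (1.96, adjusted p = 0.0535), Foxa2 (1.72, 0.0527), Pitx3 (1.61, 0.0608) and Slc6a3 (1.73, 0.130, edgeR) did not pass. For Slc6a3 the 4-week WT libraries ran from 9.68 to 1388 CPM and the 12-week ones from 1435 to 1731. The 8 oligodendrocyte genes, all detected, moved the other way, with a summed level of 23223 to 64662 CPM in 4-week WT and 11273 to 14390 at 12 weeks and no overlap between the ages in any genotype. Their part in the members' rise was not tested.

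The count of calls with age depended on single libraries. It was 9 without the 4-week WT 914, 8 without KO 91 or without KO 44, and 3 without the 12-week WT 2. En1 lost its call without the 4-week WT 23, 42, 142 or 92 and without any of the 12-week WT 1 to 5, and Slc18a2 without the 12-week WT 2. Without WT 42, KO 91, KO 44 and the library labelled WT 92 all 9 were called with a median of 1.28, and with the other dopamine identity genes as a covariate 1 was called, Lmx1b, with a median of 0.11. WT 914 was the 4-week WT library with the highest Th, Slc6a3, Slc18a2 and Ddc, and the other 5 4-week WT libraries held the thalamic list above every HET library, as given above. The ages are separate samples that may have been processed apart, which cannot be told apart from age.

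Whether the KO difference itself changed between the ages was tested as an interaction. All 9 estimates were below 0, with a median of -0.78, and 0 were called (smallest adjusted p 0.636, edgeR), where 0% of genes were called in either direction. The median was -1.26 without the 4-week WT 914, -0.47 without KO 932 and -0.49 without KO 161, and between those values without any other library, with 8 or 9 of 9 below 0 and 0 to 2 at an unadjusted p under 0.05. Lmx1b was the member at an unadjusted p under 0.05 (-0.84), where 4.74% of genes were lower.

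Outside the nigra no member was called by edgeR in either mutant. Over the 24 comparisons of KO or HET with WT there were 122 tests of members that passed the low-count filter, of which 0 were called, where 0.139% of all gene tests were called higher and 0.186% lower, from 0% to 2.6% by comparison. At an unadjusted p under 0.05 there were 18, where 7.06% of all gene tests lay in either direction. DESeq2 called 1. Of the 86 tests outside the nigra, 8 had an unadjusted p under 0.05, where 7.23% of all gene tests did, from 1.65% to 17.9% by comparison. In striatum, the target of nigral axons, the log2 fold change of Th was -0.25 ± 0.13 (SE; adjusted p = 0.39, edgeR) in 12-week KO and -0.12 ± 0.18 in 4-week KO. Th, Ddc and Aldh1a1 passed the low-count filter in all 20 of these comparisons, while Pitx3, En1 and Foxa2 passed in none of them and could not be compared at this depth. The rest of the 86 tests fell among Slc6a3, Slc18a2 and Lmx1b, and most of the possible comparisons of those genes were untested.

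The differences of these 8 that were largest in size were of Th in 4-week thalamus. Th was 6.67, 0.1, 0.0415, 0.18, 14.0 and 0.807 CPM in WT 23, 42, 92, 142, 913 and 914, 0.0198 to 0.304 in HET and 0 to 0.256 CPM in KO. WT 23, 913 and 914 lay above every HET and KO library, and the other 3 WT libraries lay within their range. The log2 difference of KO from WT was -5.06 ± 1.42 (SE; adjusted p = 0.212, edgeR) and was called by DESeq2 (adjusted p = 0.0136). DESeq2 called 0.862% of genes lower in that comparison and edgeR 0.00639%. For HET it was -5.34 (adjusted p = 0.209, edgeR), where 0.00639% of genes were called lower. The thalamic library WT 913 also held 179 CPM of Hcrt and 162 CPM of Pmch, hypothalamic peptide genes chosen after their values were seen, against at most 3.53 CPM in the other 4-week thalamic libraries, and the part of other tissue in the Th values was not tested.

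The other tests outside the nigra with an unadjusted p under 0.05 were small or at low levels. Ddc in 4-week thalamus was at -0.61 in KO and -0.47 in HET. Th was at 2.06 in KO hippocampus at 4 weeks (adjusted p = 0.725, edgeR) and 0.99 in HET somatosensory cortex at 12 weeks, both from levels near 1 CPM. Slc18a2 was at -0.85 in HET hippocampus at 4 weeks and Aldh1a1 at 0.27 in KO somatosensory cortex at 12 weeks.

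Outside the nigra 2 members were called with age. Ddc in WT hippocampus fell from a median of 7.98 CPM at 4 weeks to 4.91 at 12 weeks, a log2 difference of -0.75 (adjusted p = 0.027, edgeR), where 10.6% of genes were called lower. Aldh1a1 in WT somatosensory cortex fell from a median of 58.5 to 44.2 CPM, -0.42 (adjusted p = 0.0202, edgeR), where 13.7% were called lower. In thalamus DESeq2 called Aldh1a1 higher at 12 weeks (0.48, adjusted p = 0.0369), where it called 10.8% of genes higher, and edgeR did not (adjusted p = 0.0551). The ages overlapped in hippocampus and somatosensory cortex. Ddc was 6.17 to 10.3 and 2.77 to 7.44 CPM, and Aldh1a1 45.2 to 81.4 and 42.2 to 50.9 CPM.

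Other genes of dopamine neurons were read from 3 lists. Of 14 identity and signalling genes, 0 were called in 12-week KO nigra, 14 were below 0 with a median of -0.25, and 7 were lower at an unadjusted p under 0.05, where 3.7% of all genes were lower. The 4 with the highest level were Ret, the receptor subunit for GDNF family factors, at 643 ± 59.9 CPM in WT and 515 ± 99.1 in KO (-0.33, adjusted p = 0.649, edgeR), Dlk1 at 596 ± 50.8 and 475 ± 87.3 (-0.34), Chrna4 (-0.27) and Chrna6, a nicotinic receptor subunit of dopamine neurons, at 207 ± 21.1 and 171 ± 43.3 (-0.29). In HET the median of the list lay close to 0. The same 14 genes supplied the dopamine content covariate.

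Of 10 further transcription factors, 0 were called in 12-week KO nigra, 8 were below 0 with a median of -0.17, and 2 were lower at an unadjusted p under 0.05, against the same 3.7% of all genes. Satb1 was among them, at 88.5 ± 9.23 CPM in WT and 73.3 ± 6.96 in KO (-0.28, adjusted p = 0.649, edgeR). Nr4a2, a factor required for dopamine neurons to form, differed by -0.05 and Ebf3 by 0.14. Of 8 cofactor and breakdown genes 0 were called, with a median of 0.01. Gch1, which makes the cofactor of tyrosine hydroxylase, was 34.9 ± 3.54 and 29.4 ± 7.13 CPM (-0.25), and Qdpr (0.13) and Maoa (-0.08) lay near 0. With age in WT nigra, 7 of 10 factors, 11 of 14 identity genes and 4 of 8 cofactor and breakdown genes were called higher, where 6.86% of all genes were. Without WT 42, KO 91, KO 44 and the library labelled WT 92 these counts were 7, 11 and 5, and with the dopamine identity genes as a covariate 0 factors and 2 cofactor and breakdown genes were called. Each library was not left out in turn for these lists. At 4 weeks 0 were called in KO or HET, with HET medians of 0.74, 1.05 and 0.03 for the 3 lists in that order.

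The members varied together from library to library. The Pearson correlation of log2(CPM + 1) between Th and Slc6a3 was 0.949 over the 15 nigral libraries at 12 weeks and 0.971 over the 17 at 4 weeks. The transcription factors Foxa2 (0.555) and Lmx1b (0.692) followed Slc6a3 least at 12 weeks. The libraries share dissection and genotype, and the correlations are descriptions. Genes outside the members were listed by mean Pearson correlation over both ages among 13710 genes. Those most like Slc6a3 were Chrna6 (mean correlation 0.961), Gucy2c (0.959), Dlk1 (0.947), Ret (0.942) and Chrnb3 (0.942). Those most like Th were Drd2 (0.976), the dopamine autoreceptor of these neurons, Chrna6 (0.971), Dlk1 (0.964), Slc10a4 (0.957) and Trpc6 (0.951). The order depended on the measure. By mean Spearman correlation, members included, the Slc6a3 list ranked 16, 37, 20, 5 and 54 in that order. The Th list ranked 10, 12, 35, 13 and 38. The low 4-week libraries were included, and their part in the ranking was not tested.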

How the data were processed

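The deposited values were expected counts per gene symbol, which the authors made with Salmon on mm10, per the submitters' processing notes; the sources used here name neither the annotation nor the use of strand in counting. Per the labels' protocols, libraries were made with a stranded polyA kit. Of the nonzero values 77.9% were not whole, and all were rounded. No 2 replicates shared a library: their counts differed with a chi-square of at least 7.97 times its degrees of freedom in each of 390 pairs. Positions came from GENCODE M21, which matched 95.5% of symbols. In R 4.3.3, edgeR 4.0.16 fitted quasi-likelihood models with TMM scaling, the filterByExpr low-count filter and Benjamini-Hochberg adjustment over all genes tested, called at an adjusted p under 0.05. Genotype fits used the 3 genotypes of a region and age, age fits both ages of a region, and region fits the WT libraries of an age. Scores are means of log2(CPM + 1). DESeq2 1.42.0, relative log expression factors, no filter, only the 2 genotypes compared, covariates, a replicate block (limma 3.58.1 in the region fits) and leaving out libraries were alternatives. Depth, given with the libraries, limits calls below about 1 CPM. The scripts were tested on simulated data. The members and lists were chosen with earlier results of these data known. All members are named, with the 4 highest genes of each other dopamine list and any called (some of these genes are not reported here), and the 5 genes most like Th and Slc6a3 at a mean of at least 1 CPM.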

Additional observations from a re-analysis of the deposited data

Results flagged for a closer look

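In groups of 4 to 10 libraries with a mean of at least 1 CPM, 9 of 138 combinations of member and group had a highest or lowest library whose gap to the next passed Dixon's 95% critical value; chance gives about 1 in 20. In the 4-week WT nigra, WT 914 stood above the other 5 libraries for Th (592 CPM, others 4.11 to 212), Slc6a3 (1388, others 9.68 to 501) and Aldh1a1 (669, others 149.6 to 251). In the 12-week nigra, HET 1 stood high for Pitx3 (15.5 CPM, others 8.26 to 9.96) and WT 1 low for Aldh1a1 (599.9, others 804 to 886). In prefrontal cortex, Ddc was high in the 4-week library WT 92 (3.02 CPM, others 2.13 to 2.22) and low in the 12-week HET 2 (1.18, others 2.52 to 2.71). In striatum, Ddc was high in the 4-week KO 163 (11.5 CPM, others 4.43 to 5.65) and Aldh1a1 in the 12-week WT 4 (46.7, others 14.8 to 21.5).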

How the results depend on the processing

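Of 625 counts of members called under an alternative, 617 equalled the main count or stayed within 1.5 times, and 8 moved. Direction was not part of this score. Of the 625, 559 belong to main counts of 0 members called, which cannot fall and say little of stability. Of 969 values of single members, 10 changed sign, 20 newly passed the threshold and 16 lost it. Single members were scored for 12-week KO, 4-week HET and age in WT nigra, and for nigra against the other regions. They were not scored for 4-week KO nigra, where most members changed sign with the thalamic covariate, or for the interaction. DESeq2 called 1 member in the KO comparison of 4-week thalamus and 1 with age in WT thalamus, where edgeR called 0. The count called with age in WT nigra was 5, and it was 9 without WT 92, WT 42, KO 91 and KO 44 (chosen after seeing the data), 1 with the dopamine content covariate and 3 to 9 over libraries left out in turn. With that covariate some fitted differences changed sign: in 4-week HET nigra Th (-0.24), Slc6a3 (-0.37) and Pitx3 (-0.32), in 12-week KO nigra Pitx3 (0.010) and Foxa2 (0.15), and with age Th (-0.73), Slc6a3 (-1.23), Pitx3 (-0.78) and Foxa2 (-0.41). Foxa2 in 12-week KO nigra was 0.12 with the thalamic covariate. The cause of these changes was not tested. With the replicate number as a block (replicate block) the 12-week KO median over the members was -0.44 and 0 were called. Same-numbered 12-week nigral libraries had correlations of -0.0759 to 0.122 between their deviations from the group means, over 0.1 in 3 of 15 pairs. The numbers are thus not taken to pair the nigral samples. In the other regions the mean correlation of same-numbered libraries was higher, from 0.032 in striatum to 0.184 in prefrontal cortex. In prefrontal cortex 10 of 15 pairs were over 0.1, and the replicate block also called 0 members there.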
